A study of Mus musculus with 6 samples.

Results

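The Hox genes of the HoxA, HoxB, HoxC and HoxD clusters were followed in the posterior part of mouse embryos lacking Fkbp8 and in wild-type embryos. Members were all array spots whose gene symbol in the platform annotation was Hox, a cluster letter from a to d and a number. This rule gave 34 genes on 35 spots, out of 18507 named genes on 34967 transcript spots. Cluster A had 10 members, cluster B 10, cluster C 7 and cluster D 7. Hoxc11, Hoxc12, Hoxd4 and Hoxd12 were not analysed here.

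RNA came from 3 Fkbp8 null samples (numbers 6, 9 and 11) and 3 wild-type samples (numbers 7, 10 and 12), all on a mixed C57BL/6 and 129S5/SvEvBrd background and all taken at embryonic day 9.5. Fkbp8 is a membrane-anchored immunophilin, and embryos without it have defects of the posterior neural tube. The labels give an average of 21.6 somite pairs, with the same figure for every sample, and place the dissection immediately behind the forelimb. Whether each sample was 1 embryo or a pool is not stated, and p-values therefore reflect only how these samples vary, which may be technical. Of the labels, that for tissue gives the posterior neural tube and that for source the anterior neural tube, while the dissection protocol and the series title describe posterior tissue, which holds all tissues of that level and not the neural tube alone.

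Hox genes encode homeodomain transcription factors that give segments their identity along the head-to-tail axis. Within a cluster, genes of low paralog number are switched on first and reach farthest forward, and genes of high paralog number are switched on last and stay closest to the tail. Retinoic acid and the Cdx factors are known activators, Polycomb proteins keep the clusters silent where they are not used, and Pbx and Meis proteins bind DNA together with Hox proteins.

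The arrays carry 1 colour, and every signal below is a log2 value after background subtraction, an offset of 50 and quantile normalization. A signal is comparable across arrays for the same spot and not between spots. Differences are null minus wild type on this log2 scale, with standard error or 95% interval from limma, and null values are listed in the order of samples 6, 9 and 11 and wild-type values in the order of 7, 10 and 12. Between 63.3% and 69.2% of transcript spots per array were above the scanner software's near-background flag. Fkbp8 did not rise above the near-background flag on any null array, with raw intensities of 24.7, 28.9 and 35.7 in null samples against 123, 183 and 486 in wild-type samples. Its signal was at least 3.33-fold lower in null samples, although its adjusted p in limma over 21243 probes was 0.392. Of 8 head markers with a spot, 4 (Six3, Dlx2, En2 and Lhx2) were above background on all 6 arrays. Otx2 and Barhl2, which mark forebrain, midbrain or diencephalon, were above it on none. Six3 had 9.77 and 9.73 in null samples 6 and 9, with its null 11 spot left out, against 9.92, 10.10 and 9.95 in wild-type samples. Lhx2 was highest in wild-type 10 (9.15) and null 9 (8.44), against 6.87 to 7.61 in the other samples. Wild-type sample 10 alone had a high Xist signal (10.35) and a low signal of the Y-linked Eif2s3y (6.16), so the sexes were not balanced between the groups.

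All 4 clusters and every paralog group with a spot were detected in the posterior embryo. Of the 34 genes, 29 were above background on all 6 arrays, and 33 were above it on at least 1. Null sample 6 had 32 Hox genes above background, and null samples 9 and 11 had 33 each. Each wild-type array had 32. Hoxa13, a late gene of the limb and genital tubercle, was the single member near background on all 6 arrays. The other 4 exceptions each missed 1 array, with Hoxd9 near background on null 6, Hoxd13 on wild-type 7, Hoxd3 on wild-type 10 and Hoxa4 on wild-type 12. Genes of the anterior groups 1 to 4 were thus measured behind the forelimb as well, with all 10 above background on each null array and 9 or 10 on each wild-type array. Of the 15 genes of groups 5 to 9, 14 or 15 were above background on each null array and 15 on each wild-type array. Of the 9 genes of groups 10 to 13, each null array had 8 above background and the wild-type arrays had 7 or 8. In bulk tissue, fewer cells of a type and less RNA per cell cannot be told apart, here and in all comparisons below.

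No Hox gene passed an adjusted p of 0.05 between null and wild-type embryos. Of the 33 Hox genes tested, 0 were called by limma, where 0.00778% of the 12850 named genes tested (1 gene) and 0.00471% of the 21243 probes were called, and every Hox gene had an adjusted p of 0.9999. At an unadjusted p under 0.05 there was 1 Hox gene, Hoxd11, against 3.21% of all genes tested. In 0 of the 33 genes were the null values separate from the wild-type values, where 9.22% of all genes had no overlap. The differences ran from -0.19 for Hoxd9 to 0.57 for Hoxd11, with a median of -0.001 beside 0.01 over all genes. In null embryos 16 Hox genes were higher and 17 were lower by mean, beside 53.3% of all genes higher. With the scanner software's own scaling, or the authors' value table, the split was 18 higher and 15 lower.

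How large a difference in the offset signal these arrays could have left unseen varied by gene. The 95% interval lay within a 1.5-fold change in either direction for 25 of the 33 Hox genes, which is 75.8% beside 87.7% of all genes. It lay within a 2-fold change for 31 of them, which is 93.9% beside 98.3% of all genes. The interval reached beyond 1.5-fold for Hoxb1, Hoxb2, Hoxb9, Hoxd9, Hoxa10, Hoxc10, Hoxa11 and Hoxd11, and beyond 2-fold for Hoxb1 and Hoxd11. The offset narrows fold changes of dim spots, so these bounds hold for the signal and not for transcript amounts. Differences with the offset and with subtraction floored at 1 were 0.174 and 0.338 for Hoxa6 and 0.086 and 0.181 for Hoxa4. They were 0.106 and 0.254 for Hoxd13, whereas that of the dim Hoxd3 did not grow (-0.015 and -0.003).

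**Figure D1:**
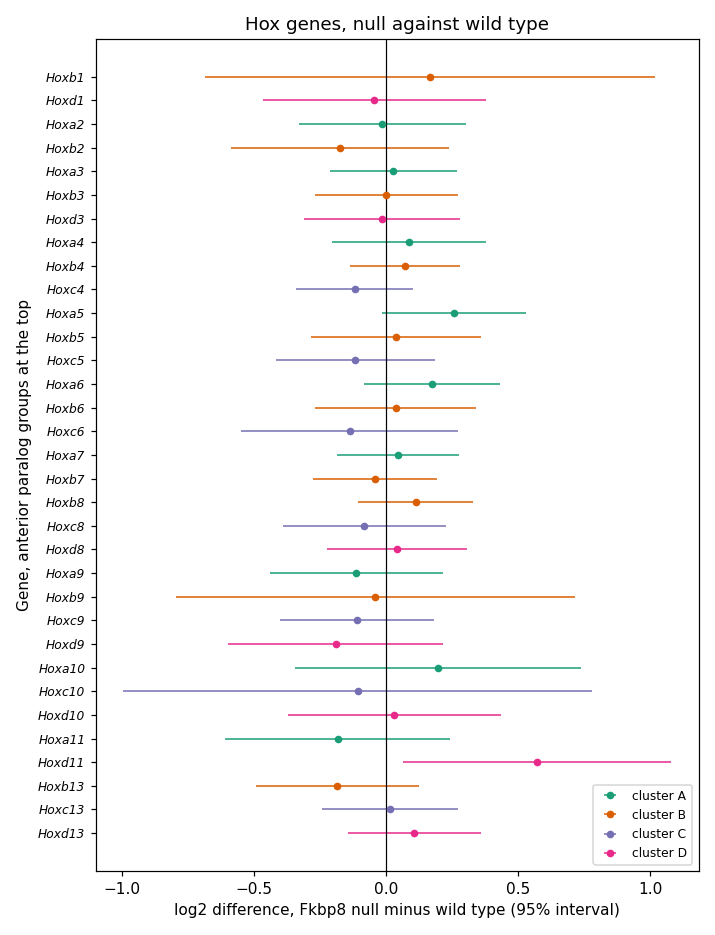
Log2 difference of each of the 33 tested Hox genes, Fkbp8 null minus wild type, with its 95% interval from limma (3 samples a group). Genes run down the page by paralog group, anterior at the top, and colour gives the cluster. Of the intervals, only that of Hoxd11 (0.06 to 1.08) does not cross 0, and those of Hoxb1, Hoxb9, Hoxc10 and Hoxd11 are among the widest.

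Paralog group 1 acts in hindbrain segmentation, and Hoxb1 is also transcribed in the tail bud. Promoter windows of Hoxb1 and Hoxd1 are printed because both genes varied between arrays in nearly the same order. Each window holds 250 bases before and 50 after a RefSeq transcription start in GRCm38.p6, 5′ to 3′ on the gene's strand, with capitals for a match on either strand to TTTATG (a Cdx motif), TGATNNAT (a joint Hox and Pbx motif) or TAATTA (a homeodomain core). The window of Hoxb1 lies at chr11:96365508-96365807 (plus strand) and that of Hoxd1 at chr2:74762730-74763029 (plus strand).
Hoxb1: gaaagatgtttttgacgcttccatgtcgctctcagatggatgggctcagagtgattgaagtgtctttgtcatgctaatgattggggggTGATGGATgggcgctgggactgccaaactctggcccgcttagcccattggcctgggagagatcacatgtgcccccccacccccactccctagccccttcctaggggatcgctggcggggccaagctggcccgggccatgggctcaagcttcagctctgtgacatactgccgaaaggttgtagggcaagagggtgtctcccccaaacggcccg
Hoxd1: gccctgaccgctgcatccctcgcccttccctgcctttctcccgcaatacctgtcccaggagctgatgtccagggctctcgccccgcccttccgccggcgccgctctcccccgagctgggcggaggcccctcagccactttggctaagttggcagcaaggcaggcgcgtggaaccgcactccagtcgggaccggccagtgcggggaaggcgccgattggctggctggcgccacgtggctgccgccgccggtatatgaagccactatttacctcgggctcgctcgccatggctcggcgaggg
The Hoxb1 window held TGATGGAT, a match to TGATNNAT, at bases 89 to 96 of the window, 162 bases before the start. The Hoxd1 window held none of the 3 motifs. TGATNNAT occurred in 8.85% of 32851 promoter windows of the same length and in 4 of 22 windows of 20 Hox members (18.2%). Its letters were widened after windows had been read, so these 2 shares cannot be set against each other as a test. TTTATG occurred in 11.9% and in 4 of 22 (18.2%), and TAATTA in 5.29% and in 2 of 22 (9.09%). These matches describe letters and say nothing of binding.

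Hoxb1 had signals of 11.52, 10.97 and 11.37 in null samples and 11.91, 10.22 and 11.24 in wild-type samples. Wild-type samples held both the highest and the lowest value, and the null values lay between them. The difference was 0.17 ± 0.37 (SE), with an interval from -0.69 to 1.02. Hoxd1, which in mice acts in sensory neurons, had 7.52, 7.21 and 7.59 in null samples and 7.84, 7.14 and 7.47 in wild-type samples. Its null range again lay inside its wild-type range, with a difference of -0.05 (SE 0.18).

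Groups 2 and 3 pattern the hindbrain, the pharyngeal arches and the neck. Hoxb2, which acts with Hoxb1 in the facial motor neurons, had 8.04, 7.89 and 8.17 in null samples against 8.39, 7.79 and 8.45 in wild-type samples. Wild-type 7 and 12 were above all null samples and wild-type 10 below them, and the difference was -0.18 (interval -0.59 to 0.24). It was -0.39 without wild-type 10 and -0.06 without wild-type 12. Hoxa2, which sets the identity of the second pharyngeal arch, had 7.56, 7.43 and 7.63 in null samples against 7.42, 7.40 and 7.84 in wild-type samples. Wild-type sample 12 stood above all null values and the other wild-type samples just below them. Hoxa3, needed for thymus and parathyroid, had 8.25, 8.08 and 7.98 in null samples against 8.12, 8.10 and 8.02 in wild-type samples, a difference of 0.03 (interval -0.21 to 0.27). Hoxb3, which patterns the neck with its paralogs, had 9.66, 9.28 and 9.52 in null samples against 9.51, 9.43 and 9.53 in wild-type samples. Its wild-type values lay close together, within the null range, and the difference was -0.001. Hoxd3, needed for the first cervical vertebrae, was dim at 6.58, 6.66 and 6.63 in null samples and 6.69, 6.39 and 6.85 in wild-type samples, and the null range lay inside the wild-type range.

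The genes of group 4 shape the neck vertebrae. Hoxb4, which is also used in blood stem cells, had 6.96, 6.95 and 6.90 in null samples against 6.82, 6.83 and 6.94 in wild-type samples. It varied least of all members over the 6 arrays (SD 0.06), on a scale whose offset narrows the spread of dim spots such as that of Hoxb4. Its difference of 0.07 had an interval from -0.14 to 0.28 and was 0.125 with subtraction floored at 1. Hoxc4 had 7.27, 7.14 and 7.19 in null samples against 7.42, 7.23 and 7.31 in wild-type samples. Null 6 alone reached the wild-type values, and the difference was -0.12 (interval -0.34 to 0.10). Hoxa4 had 6.80, 6.53 and 6.46 in null samples against 6.63, 6.55 and 6.35 in wild-type samples. Over groups 1 to 4, 4 genes were higher and 6 lower in null embryos by mean, with a median difference of -0.008.

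Group 5 marks the boundary of neck and thorax, and Hoxa5 is needed for lung development. Hoxa5 had 12.53, 12.57 and 12.42 in null samples against 12.46, 12.09 and 12.20 in wild-type samples. Null 11 fell just under wild-type 7, and the other null values were above all wild-type values. The difference was 0.26 ± 0.12 (SE), with an interval from -0.02 to 0.53 and an unadjusted p in limma of 0.0631. Hoxb5, which helps to place the shoulder, had 9.39 and 9.17 in null samples 6 and 9 against 9.42, 9.19 and 9.13 in wild-type samples. The spot of null 11 was flagged as contaminated by the scanner software and left out, so its difference of 0.04 rests on 2 null values. Hoxc5, which acts with Hoxa5 in phrenic motor neurons, had 6.99, 7.27 and 6.90 in null samples against 7.08, 7.09 and 7.35 in wild-type samples, with a difference of -0.12 and overlapping groups. Without wild-type 12 the difference of Hoxc5 was -0.03.

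Groups 6 and 7 belong to the thorax. Hoxa6 had 6.90, 6.76 and 6.58 in null samples against 6.60, 6.48 and 6.63 in wild-type samples. Null 6 and 9 stood above the wild-type values and null 11 among them, with a difference of 0.17 (interval -0.08 to 0.43). Hoxb6, which is strong in lateral plate mesoderm, had 10.46, 10.25 and 10.34 in null samples against 10.55, 10.09 and 10.31 in wild-type samples, again with the null range inside the wild-type range. Hoxc6, a gene of forelimb-level motor neurons, had 8.67, 8.64 and 8.33 in null samples against 8.64, 8.37 and 9.05 in wild-type samples. Wild-type 12 was the highest array for it, and the difference was -0.14 (interval -0.55 to 0.27). Hoxa7 had 8.62, 8.44 and 8.49 in null samples against 8.57, 8.39 and 8.45 in wild-type samples. Hoxb7 had 9.62, 9.51 and 9.47 in null samples against 9.46, 9.56 and 9.69 in wild-type samples. Both genes of group 7, which help to pattern the thoracic skeleton, were among the least variable, with differences of 0.04 for Hoxa7 and -0.04 for Hoxb7 and all bounds of their intervals within 0.28 of 0.

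In group 8, Hoxb8 had 7.78, 7.66 and 7.81 in null samples against 7.70, 7.59 and 7.63 in wild-type samples. Null 9 fell between wild-type values and the other null samples above them, with a difference of 0.11 (interval -0.11 to 0.33). Hoxc8, which sets motor neuron pools of the forelimb, had 10.45, 10.78 and 10.75 in null samples against 10.83, 10.53 and 10.86 in wild-type samples, so that the groups overlapped. Hoxd8, a gene of the thoracic and lumbar trunk, had 10.09, 10.13 and 10.31 in null samples against 10.14, 10.28 and 9.98 in wild-type samples. The intervals of both included 0, from -0.39 to 0.23 for Hoxc8 and from -0.22 to 0.31 for Hoxd8.

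Group 9 spans thorax and lumbar region, and all 4 of its genes had a lower mean in null samples. Hoxb9 had 9.13, 8.61 and 9.30 in null samples against 9.75, 8.35 and 9.07 in wild-type samples. The null range lay inside the wild-type range, and the difference of -0.04 had a wide interval (-0.80 to 0.71). Hoxc9, which sets thoracic motor neurons apart from those of the limbs, had 10.11, 10.07 and 10.45 in null samples against 10.41, 10.20 and 10.35 in wild-type samples. Null 11 was the highest array and the other null samples the lowest, with a difference of -0.11 (interval -0.40 to 0.18). Hoxa9 had 7.48, 7.71 and 7.42 in null samples against 7.62, 7.43 and 7.90 in wild-type samples. Hoxd9 had 6.10, 6.69 and 6.79 in null samples against 6.81, 6.73 and 6.62 in wild-type samples. Null 6, near background for Hoxd9, carried its difference of -0.19 (interval -0.60 to 0.22), which was 0.02 without that sample and -0.49 where background was subtracted with a floor of 1 and no offset. Over groups 5 to 9, 7 genes were higher and 8 lower by mean, with a median difference of -0.04.

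Group 10 suppresses ribs in the lumbar region and, in the spinal cord, specifies hindlimb motor neurons. Hoxc10 had 10.61, 9.93 and 10.48 in null samples against 11.18, 9.49 and 10.66 in wild-type samples. It had the largest spread of all members over the 6 arrays (SD 0.60), with the null range inside the wild-type range and a difference of -0.11 (interval -0.996 to 0.779). Hoxa10 had 7.69, 8.22 and 8.51 in null samples against 7.96, 8.29 and 7.58 in wild-type samples. The samples were mixed in order, and the difference of 0.20 had an interval from -0.35 to 0.74. It was 0.009 without null 11, 0.015 without wild-type 12 and 0.43 without null 6. Hoxd10 had 8.64, 9.07 and 8.79 in null samples against 8.45, 8.90 and 9.05 in wild-type samples, with a difference of 0.03.

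Group 11 shapes the sacrum and, with its paralogs, the kidney. The promoter table had 2 windows of Hoxd11, at chr2:74679308-74679607 and chr2:74682073-74682372 (both plus strand), and they are printed because Hoxd11 was the member with the largest difference. Capitals mark matches to the same 3 motifs.
Hoxd11 first window: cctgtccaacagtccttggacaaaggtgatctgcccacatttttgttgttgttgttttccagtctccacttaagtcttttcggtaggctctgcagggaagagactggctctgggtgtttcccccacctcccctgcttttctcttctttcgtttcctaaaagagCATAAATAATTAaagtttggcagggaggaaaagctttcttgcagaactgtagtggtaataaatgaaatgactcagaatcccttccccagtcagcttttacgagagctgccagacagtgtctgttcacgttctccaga
Hoxd11 second window: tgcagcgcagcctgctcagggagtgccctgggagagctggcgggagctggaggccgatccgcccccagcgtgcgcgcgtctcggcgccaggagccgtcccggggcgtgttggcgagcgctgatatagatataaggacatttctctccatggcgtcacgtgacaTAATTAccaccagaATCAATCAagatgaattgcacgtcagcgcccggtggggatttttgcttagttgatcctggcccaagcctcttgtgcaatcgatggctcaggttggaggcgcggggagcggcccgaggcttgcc
The first window held a match to TTTATG, read on the other strand, at bases 164 to 169 and next to it TAATTA at bases 170 to 175. The second held TAATTA at bases 164 to 169 and a match to TGATNNAT, read on the other strand, at bases 178 to 185. The table had 22 windows of 20 of the 34 members, and no other of these held TAATTA. Members without a window could not be read for it.

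Hoxd11 had signals of 8.86, 9.39 and 9.44 in null samples and 8.68, 8.25 and 9.04 in wild-type samples. Null 9 and 11 were above all wild-type samples, and null 6 lay between wild-type 7 and wild-type 12. The mean was 9.23 ± 0.32 in null samples and 8.66 ± 0.40 in wild-type samples (SD, n = 3 each). The difference of 0.57 ± 0.22 (SE) had an interval from 0.06 to 1.08 and an unadjusted p in limma of 0.0321, with an adjusted p of 0.9999. It was positive with each sample left out in turn and ranged from 0.37 without wild-type 10 to 0.76 without wild-type 12. The unadjusted p in limma was above 0.05 with median scaling (0.116), from the scanner software's intensity (0.075), from the authors' value table (0.0752) and without null 9, null 11, wild-type 7 or wild-type 10 (0.0603 to 0.103). Hoxa11, its paralog, went the other way by mean, with 7.25, 7.55 and 7.25 in null samples against 7.26, 7.38 and 7.96 in wild-type samples. That difference of -0.18 (interval -0.61 to 0.24) rested on wild-type 12, without which it was 0.03.

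Group 13 ends the axis and patterns digits and genital tubercle. Hoxb13, whose loss lengthens the tail in mice, had 9.40, 9.10 and 9.18 in null samples against 9.54, 9.53 and 9.17 in wild-type samples. Wild-type 12 was among the null values, and the difference was -0.19 (interval -0.50 to 0.13). Hoxc13, a gene of hair and nails, had 7.59, 7.81 and 7.69 in null samples against 7.52, 7.76 and 7.77 in wild-type samples, with a difference of 0.01. Hoxd13 was the single gene with 2 spots. On its brighter spot Hoxd13 had 6.57, 6.58 and 6.54 in null samples against 6.29, 6.63 and 6.46 in wild-type samples, a difference of 0.11 (interval -0.15 to 0.36). The dimmer spot of Hoxd13 was above background on null 11 alone and was not tested, so the agreement of both spots could not be judged. Hoxa13, near background throughout, had 6.11, 6.08 and 6.32 in null samples and 6.07, 6.23 and 6.32 in wild-type samples. Over the tested genes of groups 10 to 13, 5 were higher and 3 lower by mean, with a median difference of 0.02.

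By cluster, 6 tested genes of cluster A had a higher mean in null embryos and 3 a lower one, with a median difference of 0.04. Cluster B had 5 of each, with a median of 0.02, and cluster D had 4 higher and 3 lower, with a median of 0.03. In cluster C, 1 gene (Hoxc13) was higher and 6 were lower, with a median of -0.11, and the differences ran from -0.14 to 0.01. Without wild-type 12 the cluster C median was -0.02, with 2 genes higher and 5 lower, and without wild-type 10 it was -0.17. With the scanner software's intensity it was -0.06. Without null 6 the median was -0.02 in cluster A and -0.09 in cluster B, and cluster D reached -0.02 without null 11. None of these cluster medians was tested, and no member of any cluster passed the threshold.

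The wider variation among the Hox genes lay between single arrays of the same genotype, and for several genes mostly among wild-type samples. The SD in null and in wild-type samples was 0.28 and 0.85 for Hoxb1, 0.36 and 0.70 for Hoxb9, and 0.36 and 0.87 for Hoxc10. It was 0.32 and 0.40 for Hoxd11, and 0.42 and 0.35 for Hoxa10. The median SD over the 6 arrays was 0.17 for the 33 Hox genes beside 0.15 for all genes tested, and 5 Hox genes (15.2%) exceeded 0.29, the 90th percentile of all genes. Wild-type sample 10 was the lowest array for 13 of the 33 Hox genes, which is 39.4% beside 18.2% of all genes. Hoxb1, Hoxd1, Hoxb6, Hoxb9 and Hoxc10 were all lowest in wild-type 10, highest in wild-type 7 and, among null samples, lowest in null 9. That is 5 of 33 Hox genes (15.2%) beside 224 of 12850 genes (1.74%), as a description of arrays chosen after the values were seen. In paralog group 1 the median deviation from the mean of the 6 arrays was 0.19, -0.24 and 0.15 in null samples 6, 9 and 11, against 0.54, -0.65 and 0.02 in wild-type samples 7, 10 and 12.

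Of 11 tested markers of the tail bud and presomitic mesoderm, 9 were lowest in wild-type 10, 6 were highest in wild-type 7 and 8 were lowest among null samples in null 9. All of these held for 4 of them, T, Cdx2, Msgn1 and Dll3, while Fgf8 and Wnt3a, signals of the tail bud, were lowest in wild-type 12. Of all genes tested, 18.2% were lowest in wild-type 10 and 14.7% highest in wild-type 7. The share for null 9 was not counted, and the arrays were chosen after the values were seen. T, the Brachyury factor of the tail bud, had 10.66, 9.88 and 10.59 in null samples against 11.11, 7.99 and 10.36 in wild-type samples. Cdx2, an activator of trunk and tail Hox genes, had 10.14, 9.13 and 9.88 in null samples against 10.54, 7.81 and 9.87 in wild-type samples. For T, Cdx2, Hoxb1 and Hoxb6 the 6 arrays fell in one and the same order, from wild-type 7 through null 6, null 11, wild-type 12 and null 9 down to wild-type 10. These genes were picked after their values were seen, and the share of all genes with this order was not counted. Other tail bud markers had other orders, with wild-type 12 highest for Tbx6 and above null 6 for Msgn1. The list has 12 markers, of which 10 were above background on all 6 arrays and none was near background throughout. For the 11 tested markers, signals were summed after normalization, on the linear scale and with the offset taken off. The sum was 5217 to 7150 in null samples, lowest in null 9. In wild-type samples it was 3249 to 9350, lowest in wild-type 10 and highest in wild-type 7. The part of this marker level in the Hox signals was not tested. Without wild-type 10 the difference was -0.28 for Hoxb1, -0.22 for Hoxd1, -0.08 for Hoxb6, -0.40 for Hoxb9 and -0.58 for Hoxc10, and without wild-type 7 it was 0.56, 0.14, 0.15, 0.31 and 0.26 in the same order of genes, with adjusted p in limma of at least 0.788 in each case.

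**Figure D2:**
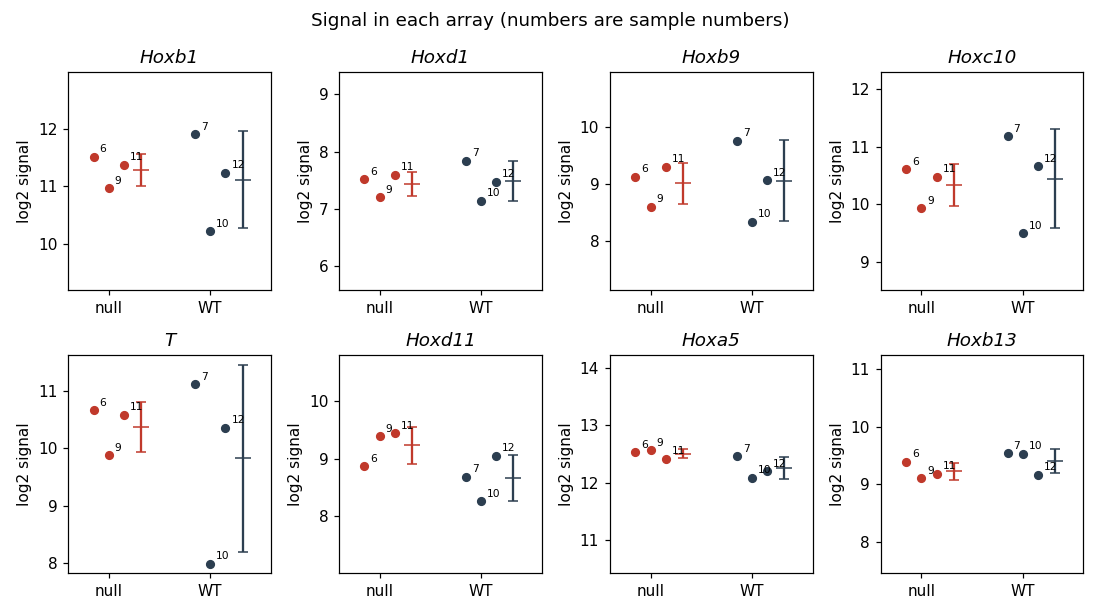
Log2 signal in each sample for 7 Hox genes and T, null samples left and wild-type samples right, with sample numbers beside the points and the mean ± SD (n = 3) as bars. Each panel covers the same span of log2 signal. In Hoxb1, Hoxd1, Hoxb9, Hoxc10 and T, wild-type 10 is lowest and wild-type 7 highest, whereas Hoxd11, Hoxa5 and Hoxb13 show other orders.

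Other tissue markers also differed between the groups by mean. All 8 neural tube markers were above background on all 6 arrays. Of these, 7 of 8 were lower in null samples, among them Pax6 (difference -0.76, interval -1.34 to -0.18), whereas Sox2 was higher (difference 0.15). An unadjusted p in limma under 0.05 was found for 3 of the 8, beside 3.21% of all genes tested. The median difference of the neural tube markers was -0.37. Sums on the same scale as for the tail bud markers were 1993 to 3093 in null samples against 3038 to 4872 in wild-type samples. Of 9 somite and sclerotome markers 8 were higher in null samples, with a median difference of 0.35 and sums of 5550 to 6663 in null samples against 2326 to 6828 in wild-type samples. The low sum was that of wild-type 10, and without this sample the median was 0.13, with Tcf15 and Uncx lower in null samples. The neural tube median ranged from -0.575 (without null 11) to -0.239 (without wild-type 10). Of the 4 tested blood markers 1 was higher and 3 were lower, with sums of 9365 to 24700 in null samples against 12600 to 36480 in wild-type samples, and without null 6 or without wild-type 10 the split was 3 higher and 1 lower. Of the 6 tested markers of hindlimb and lateral plate 2 were higher and 4 lower, and Hand2 was near background on all arrays. The 6 tested head markers had 1 higher and 5 lower, with a median difference of -0.096. No marker of these lists passed the threshold, and their part in the Hox differences was not tested.

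**Figure D3:**
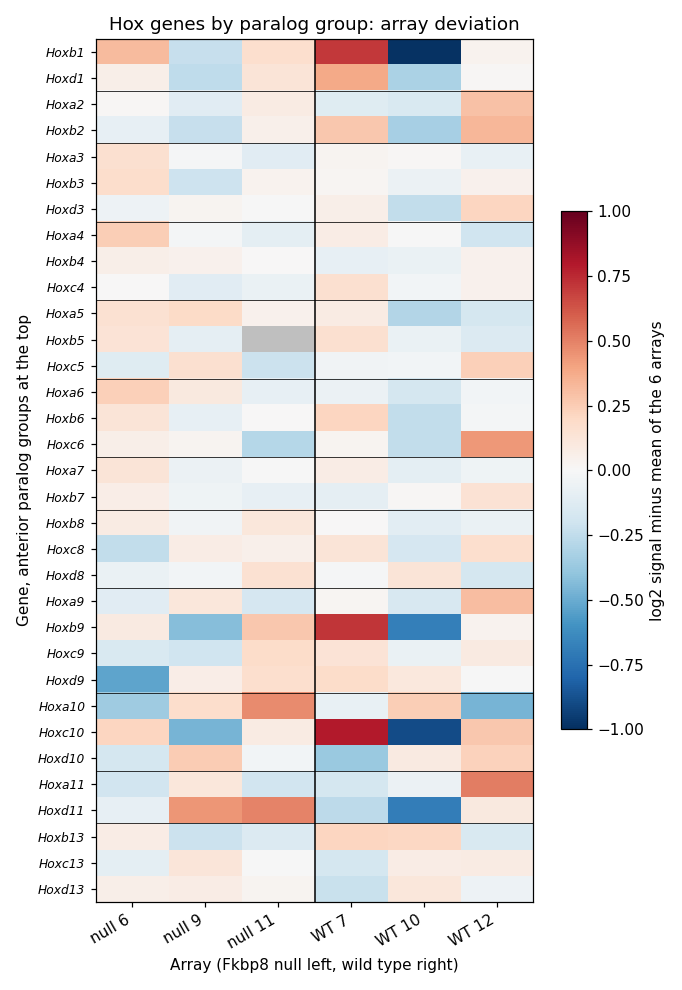
Log2 signal of each tested Hox gene minus its mean over the 6 arrays, with genes down the page by paralog group, null samples in the left columns and wild-type samples in the right ones. Red is above and blue below the gene's mean, and grey is the left-out Hoxb5 spot of null 11. The strongest colours lie in wild-type 7 and wild-type 10 for Hoxb1, Hoxb9 and Hoxc10, and in wild-type 10 for Hoxd11.

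Genes that work with or upstream of Hox genes gave 0 calls as well. Of 8 tested cofactors of the TALE class 5 were higher and 3 lower in null embryos, with a median difference of 0.06. Meis2, a cofactor that binds DNA together with Hox proteins, had 10.40, 10.95 and 10.56 in null samples against 10.38, 10.48 and 10.07 in wild-type samples, a difference of 0.32 (interval -0.06 to 0.70). Null 9 and 11 were above all wild-type samples and null 6 among them. Meis3 differed by -0.30 (interval -0.87 to 0.27).

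Of 10 tested activators along the axis 6 were higher and 4 lower, with a median of 0.06. Lin28a, an RNA-binding protein of the early embryo, had 12.17, 11.24 and 11.77 in null samples against 12.49, 11.23 and 12.70 in wild-type samples, a difference of -0.41 (interval -1.28 to 0.46). T differed by 0.55 (interval -1.02 to 2.12), and Acvr2b, a receptor for Gdf11, by 0.16 (interval -0.15 to 0.47). Of 11 tested genes of the retinoic acid route 4 were higher and 7 lower, with a median of -0.13. Rxrb, a nuclear receptor that pairs with retinoic acid receptors, had 6.36, 6.59 and 6.82 in null samples against 6.97, 6.86 and 7.12 in wild-type samples. All null values of Rxrb were below its wild-type values, with 1 null array near background, and the difference of -0.39 (interval -0.71 to -0.08) had an unadjusted p in limma of 0.0205 and an adjusted p of 0.9999. Rdh10, which makes retinaldehyde, differed by 0.20 (interval -0.15 to 0.55), and the binding protein Crabp2 by -0.21 (interval -0.59 to 0.18) with its spot on null 11 left out.

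Of 21 tested Polycomb and trithorax genes 13 were higher and 8 lower, with a median of 0.02. The lowest p-values there were those of Phc1 (difference 0.17, interval -0.06 to 0.40), Phc2 (0.30, interval -0.13 to 0.73) and Jarid2 (-0.18, interval -0.45 to 0.09), which are parts or partners of Polycomb complexes. Of 8 tested genes beside the clusters 4 were higher and 4 lower, with a median of 0.04. Snx10 differed by 0.22 (interval -0.07 to 0.51), Lnpk, beside the HoxD cluster, by 0.26 (interval -0.10 to 0.61) and Evx1, the homeobox gene at the posterior end of the HoxA cluster, by -0.17 (interval -0.44 to 0.10). The 3 tested genes of other regional homeobox families were lower by mean, with a median of -0.07.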

How the data were processed

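Per the labels, biotin-labelled cRNA was made from total RNA and read on CodeLink arrays with 1 colour. Raw and normalized intensity were deposited per spot with a quality flag, from CodeLink Expression Analysis 4.1 per the file headers. The raw intensity was already background-subtracted (38 to 67 spots per array below 0). The deposited value table holds a ratio to the array median, within a factor of 1.01 to 1.02 of the normalized intensity. Its scale is linear, with column medians of 1.00 to 1.01. No genome build of the probes was used. The index table lists probes, and the control summaries were not used.

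Raw intensity was floored at 0, an offset of 50 went on top, and quantile normalization followed on the log2 scale. The software marked 391 to 543 spots per array as irregular, contaminated or defective, and these were omitted. Probes entered the test if every array of 1 group or both showed them above near-background, with at least 2 usable values per group, which left 21243 probes and 12850 named genes. The fit used limma 3.58.1 (lmFit, eBayes) under R 4.3.3. Its tests are two-sided, and p-values were adjusted by Benjamini and Hochberg over all probes, with a threshold of 0.05. Among several probes of a gene, that with the highest mean signal was taken. The bound for Fkbp8 sets its wild-type mean against, per null array, the lowest above-background signal or its own signal, whichever was higher. Precision is limited by having 6 arrays. The fit was tested on simulated data.

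Values in every sample are given for all Hox members. From each other list, at most 3 genes with the smallest p were named as its results. Cdx2, Six3, Lhx2, Xist, Eif2s3y and markers beside them were chosen after their values were seen. Members and lists were chosen with earlier results of these data known. Promoter windows came from the RefSeq table of GRCm38.p6, with windows for 20 of the 34 members. The motif TGATNNAT was widened to these letters after windows had been read. Alternatives covered the offset, the floor, the scaling, the starting values, the filter, the flags, the probe choice and each sample left out. Some genes are not reported here.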

Additional observations from a re-analysis of the deposited data

How the results depend on the processing

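No Hox gene passed the threshold under any alternative run, with 0 to 2 probes of the whole array called and 0 to 2 Hox genes at an unadjusted p under 0.05. Outside the fits that left out a sample, each Hox gene kept its sign with 3 exceptions, all close to 0. Hoxb3 (-0.001) was 0.023 with median scaling, 0.039 from the scanner software's normalized intensity, 0.037 from the authors' value table and 0.001 with every spot kept. Hoxb7 (-0.04) was 0.004 from the software's intensity and 0.002 from the authors' value table, and Hoxb5 (0.04) was -0.021 with every spot kept. With 1 sample left out in turn, the median Hox difference ranged from -0.08 (without wild-type 10) to 0.051 (without null 9), that of groups 1 to 4 from -0.119 to 0.051, of groups 5 to 9 from -0.08 to 0.044 and of groups 10 to 13 from -0.024 to 0.087. The genes that changed sign in such a fit ranged as follows: Hoxb1 (-0.282 to 0.555), Hoxa3 (-0.048 to 0.088), Hoxa7 (-0.010 to 0.094), Hoxd9 (-0.321 to 0.023), Hoxa11 (-0.327 to 0.028), Hoxd1 (-0.216 to 0.137), Hoxa2 (-0.094 to 0.125), Hoxb3 (-0.088 to 0.103), Hoxd3 (-0.144 to 0.084), Hoxa4 (-0.016 to 0.153), Hoxb6 (-0.080 to 0.152), Hoxc6 (-0.300 to 0.041), Hoxb7 (-0.097 to 0.019), Hoxc8 (-0.188 to 0.019), Hoxd8 (-0.036 to 0.115), Hoxa9 (-0.223 to 0.014), Hoxb9 (-0.398 to 0.310), Hoxc10 (-0.583 to 0.262), Hoxd10 (-0.148 to 0.155), Hoxc13 (-0.070 to 0.067) and Hoxb5 (-0.023 to 0.123). The other tested genes kept their sign. Of these, Hoxa5 (0.173 to 0.355), Hoxb8 (0.080 to 0.153) and Hoxb4 (0.050 to 0.106) moved by less than 1.5 times. The rest moved by over 1.5 times: Hoxb2 (-0.386 to -0.058), Hoxc4 (-0.164 to -0.071), Hoxa6 (0.101 to 0.254), Hoxa10 (0.009 to 0.426), Hoxd11 (0.368 to 0.759), Hoxb13 (-0.307 to -0.122), Hoxd13 (0.023 to 0.191), Hoxc5 (-0.221 to -0.027) and Hoxc9 (-0.230 to -0.040). The cause of these changes was not tested. Fkbp8 was lower in null samples throughout, by -2.04 to -1.41 with a sample left out, and has no value where all 6 arrays had to be above background. Averaging probes changed nothing because 1 probe of Hoxd13 was tested. A slide or scan block was not run because each array was its own slide in a single session. No paired analysis was possible because null and wild-type samples have no number in common. Of the dim spots, Hoxd9, Hoxa4 and Hoxd13 had larger differences with subtraction floored at 1 (-0.494, 0.181 and 0.254) than with the offset of 50 (-0.192, 0.086 and 0.106), whereas Hoxd3 did not (-0.003 against -0.015). The values of clusters and marker lists under other settings were added after seeing the data.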

Other observations

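Transcripts from inside or beside the clusters were read in 5 further spots, chosen after their values were seen. Hoxb5os, a transcript antisense in the HoxB cluster, had log2 signals of 10.80, 10.14 and 10.98 in null samples 6, 9 and 11 against 11.34, 10.40 and 10.96 in wild-type samples 7, 10 and 12. Wild-type 7 was highest and null 9 lowest, the groups overlapped, and the difference was -0.26 ± 0.28 (SE). Hoxd3os1 in the HoxD cluster had means of 6.96 in null samples and 6.92 in wild-type samples on its brighter spot, and its dimmer spot was not tested. Hoxaas3 in the HoxA cluster was near background on all 6 arrays, and Evx2, the homeobox gene beyond Hoxd13, was near background on all except wild-type 7.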
